A study of Sus scrofa with 24 samples.

Results

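The cytosolic ribosomal protein genes of the pig were followed in preadipocytes from 2 fat depots during 8 days of adipogenic culture. Members were the rows of the deposited expression table whose pig Ensembl symbol is RPL or RPS followed by a number, with an optional closing letter (A, X, Y, or L with or without a further number), together with the stalk genes RPLP0, RPLP1 and RPLP2 and with RPSA. Genes of mitochondrial ribosomal proteins (MRPL and MRPS) and of the S6 kinases were not members. Of the 25462 genes in the table, 50 were members, 25 for the large subunit and 25 for the small subunit. Symbols of further ribosomal protein genes such as RPS6, RPL10A, RPL13A and RPL22 were carried by no row, so these genes were not analysed here. Only 14815 genes of the table had a symbol, and whether the missing ones sit in rows without a symbol was not resolved. The counts and shares below cover the 50 members only.

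The cells were isolated from 6-day-old Yorkshire piglets, either from back subcutaneous fat (BF) or as intramuscular preadipocytes from digested longissimus dorsi muscle (IMF). All 8 groups came from primary cultures that received the same sequence of media. Day 0 cells were taken before induction. The induction medium contained the phosphodiesterase inhibitor IBMX, the glucocorticoid dexamethasone and insulin, and was replaced by medium with insulin alone and later by plain growth medium. Each depot was sampled on days 0, 2, 4 and 8 with 3 libraries, which gave 24 libraries named here by depot and day (BF-2d, IMF-8d). The labels do not tie a library to an animal, so a p-value measures the spread between these libraries, which may be partly technical. Values were FPKM, fragments scaled to transcript length and to the mapped fragments of the library, and they keep no read counts, so that depth is unknown.

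A ribosome has a small subunit, which holds the mRNA and reads its codons, and a large subunit, which joins amino acids into a chain. Ribosomal proteins are needed in fixed proportions, and a growing cell spends much of its transcription and translation on them. Their mRNAs belong to the TOP class: they begin with a C that is followed by an unbroken run of C and T bases, and this tract lets nutrient and insulin signalling through mTOR switch their translation. Many ribosomal protein genes have processed pseudogene copies in mammalian genomes. Reads that fit a gene and its copy cannot be assigned with certainty, so the level of any single member is less certain than its FPKM appears.

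The start sites show how far this tract can be seen in the annotation. Each sequence runs for 15 bases before the annotated gene start and for 15 bases from it, read on the gene's strand from Sscrofa11.1 with RefSeq gene starts, and capitals mark an unbroken C/T run of at least 5 bases that opens with C within 5 bases of the start. The first 4 genes have a long run, RPL7 has a long run and was called in 0 of 15 contrasts, and RPL4 has a short run. RPL28, with the largest called rise, and RPL7L1, lower on day 8 than on day 0 in both depots, have no run of that length.
RPLP0 (chr14:40223929-40223958, minus strand): cggcgtacagCCCTCCTCTCgccaggcgtc
RPL10 (chrX:124927234-124927263, plus strand): caggcgtgggagcgCCTCTTTTCCTTCggc
RPLP2 (chr2:507876-507905, plus strand): cccccgcgccggcgtCTTCCTTTCTgtccc
RPS20 (chr4:75762194-75762223, plus strand): aggcctcacgCCTTCCTCTTTgaagaagac
RPL7 (chr4:62602415-62602444, plus strand): cgcatgcgctaaCTTCCTCTTTCCCggctg
RPL4 (chr1:164481751-164481780, minus strand): tcgcgagaattggccacgCCCCCTTgtgga
RPL28 (chr6:59556571-59556600, plus strand): ttgccgagctggttcggagacgggagggga
RPL7L1 (chr7:37940534-37940563, plus strand): cggaagtcggtgggaagcgtttcctcgttt

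All 50 members were matched to a RefSeq gene. A run of at least 5 bases was present at 17 of the 50 annotated starts (34.0%), against 18.8% of all 19558 protein-coding genes on named chromosomes. A run of at least 8 bases was present at 11 (22.0%), against 4.92% of all genes and 2.70% of 74 mitochondrial ribosomal protein genes. These shares describe the annotated starts, which need not be the base at which transcription begins.

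Ribosomal protein genes were among the most abundant transcripts of these cells. On average over the 24 libraries, 45 of the 50 members exceeded 50 FPKM, 24 exceeded 500 FPKM and 10 exceeded 1000 FPKM, and 23 were among the 100 highest genes in all. RPLP0, a stalk protein that helps recruit elongation factors, had the highest mean level (2755 FPKM), followed by its partner RPLP1 (2224 FPKM) and by RPL7A (1650 FPKM), a large subunit protein. Only 5 members lay under 50 FPKM, and all 5 are named as copies or relatives of another ribosomal protein: RPL26L1 (34.5 FPKM), RPL7L1 (26.5 FPKM), RPS27L (14.5 FPKM), RPL3L (0.0737 FPKM) and RPL10L, which was listed at 0 in all 24 libraries. RPL3L, known as the heart and skeletal muscle relative of RPL3, and RPL10L, known from testis, were thus listed at or near 0. RPL10L did not pass the filter on low values, and the other 49 members were tested.

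The members together took between 6.27 and 13.84% of a library's summed FPKM, and this share moved with the day mainly in BF cells. In BF-0d the 3 libraries held 7.32, 7.99 and 8.81%. In BF-2d they held 10.65, 13.84 and 10.21%, all above every BF-0d library. In BF-4d they held 10.56, 10.34 and 6.88%, so that replicate 3 lay below all BF-0d libraries while the other two matched BF-2d. In BF-8d they held 6.71, 6.27 and 6.28%, the lowest of any group. The IMF libraries lay closer together. They held 7.60, 7.95 and 8.81% on day 0, 8.58, 9.55 and 8.83% on day 2, 9.46, 8.88 and 9.04% on day 4, and 9.44, 7.77 and 9.01% on day 8. Both subunits moved together, since the large subunit sum divided by the small subunit sum stayed between 1.22 and 1.36 in the 24 libraries. In bulk samples, fewer cells of a type and less RNA per cell cannot be told apart.

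**Figure D1:**
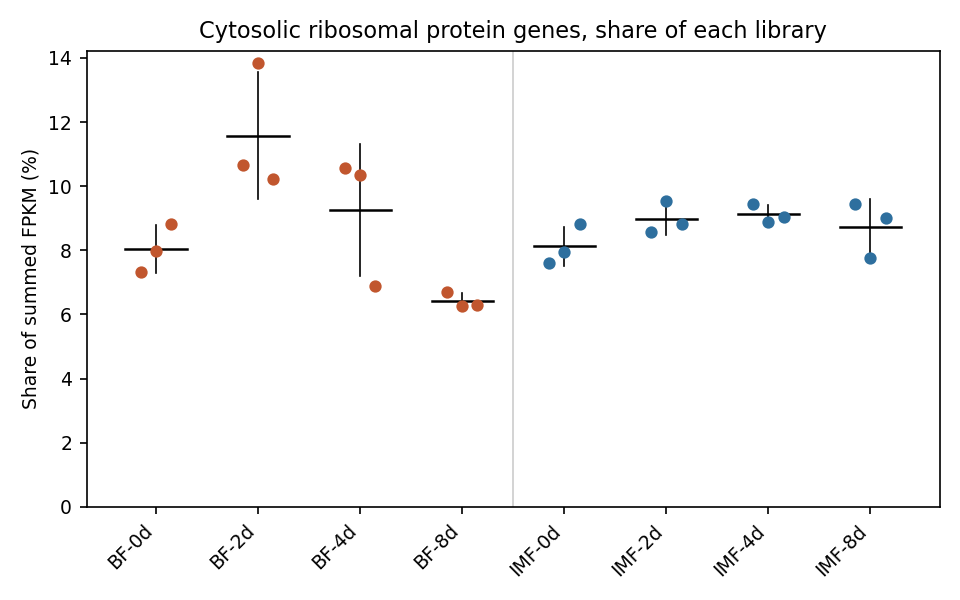
Share of each library's summed FPKM (in %) taken by the 50 ribosomal protein genes, for 8 groups on the horizontal axis. Points are libraries, horizontal bars are group means and vertical bars are ± 1 SD (n = 3). BF-2d lies highest, with 1 library at 13.84%, BF-8d lies lowest near 6.3 to 6.7%, and 1 BF-4d library at 6.88% stands below its group.

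Some libraries stood apart. Replicates correlated at 0.962 to 0.994 (Pearson's r across genes, which are not independent), and the lowest values were within BF-2d, between BF-4d replicate 3 and its partners, and between BF-8d replicates 1 and 2. In BF-2d replicate 2, 47 of the 49 tested members had their highest value of all 24 libraries. This library also had the highest summed FPKM (385768, against 307967 in the lowest library), the fewest genes at 1 FPKM or more (9985, against 10311 to 10858 in the others) and the lowest endothelial marker sum.

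Members were tested with limma on log2(FPKM + 1) within a fit of all 16135 genes that passed the filter, and fold changes are on that scale with their standard error (SE). Calls were made where the Benjamini-Hochberg adjusted p was under 0.01, the false discovery limit of the study. The number that also passed its fold limit (an absolute log2 fold change of 1) is given beside the calls or further below.

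In BF cells many ribosomal protein genes were called higher on day 2 than on day 0, and none was called lower. Of the 49 tested members, 26 were called higher and 0 lower, against 7.88% of all genes called higher. The fold limit was also passed by 1 of them, RPL28 (6.59% of all genes passed both). The median log2 fold change of the 49 was 0.67, a fold of 1.59, against -0.04 over all genes, and 47 members had a positive value. The libraries of the 2 groups did not overlap for 41 members, all higher on day 2, against 16.8% of all genes. Both subunits contributed, with 14 of 24 large subunit members (median 0.66) and 12 of 25 small subunit members (median 0.69).

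The stalk of the large subunit, which contacts the elongation factors, was represented by 3 called genes. RPLP0 measured 1991, 1963 and 2260 FPKM in BF-0d and 3576, 5010 and 3349 FPKM in BF-2d. RPLP0 thus rose without overlap, by a log2 fold change of 0.92 ± 0.16 (SE, adjusted p = 0.000165). RPLP2 measured 586, 687 and 860 FPKM in BF-0d and 1114, 1908 and 1167 FPKM in BF-2d, a rise of 0.95 ± 0.22 (adjusted p = 0.00239). RPLP1 rose by 0.76 ± 0.18 (adjusted p = 0.00276), also without overlap.

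Of the other large subunit proteins, RPL10, which joins the subunit last and is needed for its release into translation, measured 1174, 1481 and 1377 FPKM in BF-0d and 2233, 2428 and 1743 FPKM in BF-2d, a rise of 0.66 ± 0.16 (adjusted p = 0.00366). RPL3, which reaches toward the site of peptide bond formation, rose by 0.69 ± 0.16 (adjusted p = 0.00318). RPL7A rose by 0.69 ± 0.17 (adjusted p = 0.00365). RPL5 and RPL11 travel to the ribosome as a pair and, when free, bind the p53 regulator MDM2. RPL5 rose by 0.63 ± 0.14 (adjusted p = 0.0018). RPL11 had a value of 0.48 ± 0.21 with overlapping libraries and did not pass (adjusted p = 0.0796).

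On the small subunit, RPS9, which is needed early in its assembly, measured 514, 559 and 672 FPKM in BF-0d and 994, 1546 and 874 FPKM in BF-2d, a rise of 0.93 ± 0.19 (adjusted p = 0.000819). RPS15 measured 281, 325 and 406 FPKM against 574, 864 and 506 FPKM, a rise of 0.92 ± 0.21 (adjusted p = 0.00248). Both were higher in every BF-2d library than in any BF-0d library. RPS20 rose by 0.86 ± 0.19 (adjusted p = 0.00169), and RPS3, at the entrance of the mRNA channel, by 0.74 ± 0.18 (adjusted p = 0.0029). Smaller rises were called for RPS27A, which is made as a fusion with ubiquitin (0.58 ± 0.16, adjusted p = 0.00728), and for the X-linked RPS4X (0.53 ± 0.14, adjusted p = 0.0072). RPSA, also known as a laminin receptor, had a value of 0.54 ± 0.16 and did not pass (adjusted p = 0.0146), although its libraries did not overlap.

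The number of calls rested on single libraries, on the scaling and on the shared spread. Of the 26 calls over BF days 0 to 2, rescaling to TPM left 13 and quantile normalization 6. Without BF-2d replicate 2 the count was 4, without BF-0d replicate 1 it was 5, without BF-0d replicate 2 it was 8, and with only the 6 libraries of BF-0d and BF-2d in the fit it was 0.

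Between day 2 and day 4 most BF members were lower, and for most of them the groups overlapped. Libraries did not overlap for 13 members, all lower on day 4, against 13.3% of all genes. The median was -0.38 and 47 members had a negative value, yet only RPL10 was called, a fall of 0.62 on the log2 scale (SE 0.16, adjusted p = 0.00882), against 5.82% of all genes called lower. RPL10 measured 1416, 1561 and 1170 FPKM in BF-4d, each below every BF-2d library. This call was kept in 8 of the 24 fits that left out 1 library.

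Between day 4 and day 8 some members fell in BF cells. Of the 49, 10 were called lower and 0 higher, against 4.87% of all genes called lower, with a median of -0.50, and 0 of the 10 passed the fold limit, which 2.93% of all genes did. Libraries did not overlap for 28 members, all lower on day 8, against 21.8% of all genes. RPS15 measured 476, 522 and 307 FPKM in BF-4d and 225, 230 and 225 FPKM in BF-8d, a fall of 0.90 on the log2 scale (SE 0.21, adjusted p = 0.00538). RPS20, a small subunit protein, measured 171, 170 and 113 FPKM against 79.7, 83.9 and 81.4 FPKM, a fall of 0.86 (SE 0.19, adjusted p = 0.00384). In both genes BF-4d replicate 3 was the lowest library of its group and still above BF-8d. RPLP0 fell by 0.80 (SE 0.16, adjusted p = 0.00139), RPSA by 0.77 (SE 0.16, adjusted p = 0.00243), RPS4X by 0.66 (SE 0.14, adjusted p = 0.00281) and RPL5 by 0.55 (SE 0.14, adjusted p = 0.00872). RPL10 fell by 0.63 (SE 0.16, adjusted p = 0.00961). The RPL5 call was kept in 5 of the 24 fits without 1 library and the RPL10 call in 6. The calls numbered 32 without BF-4d replicate 3 and 16 without BF-2d replicate 2. They numbered 0 without BF-4d replicate 1 or replicate 2, 4, 2 and 1 without BF-8d replicate 1, 2 or 3 in turn, and 6 without BF-0d replicate 2 or any 1 of several IMF libraries. Median ratio scaling also left 0.

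Over the whole course, most BF members ended near or below their day 0 level. Between day 0 and day 8, 5 were called lower and 0 higher, against 22.8% of all genes called lower. Libraries did not overlap for 27 members that were lower on day 8, against 37.0% of all genes. The median was -0.24, against -0.06 over all genes. The 5 were RPL4, RPL10, RPSA, RPL7L1 and RPS27L. RPL10 measured 878, 863 and 920 FPKM in BF-8d, below every BF-0d library, a fall of 0.59 (SE 0.16, adjusted p = 0.00456). RPSA fell by 0.59 (SE 0.16, adjusted p = 0.00494) from 1035, 1060 and 1199 to 719, 751 and 719 FPKM. The 5 calls became 0 without BF-0d replicate 3, 1 without BF-0d replicate 2 or BF-8d replicate 2 or 3, 2 without BF-8d replicate 1, 0 with median ratio scaling and 18 with quantile normalization.

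**Figure D2:**
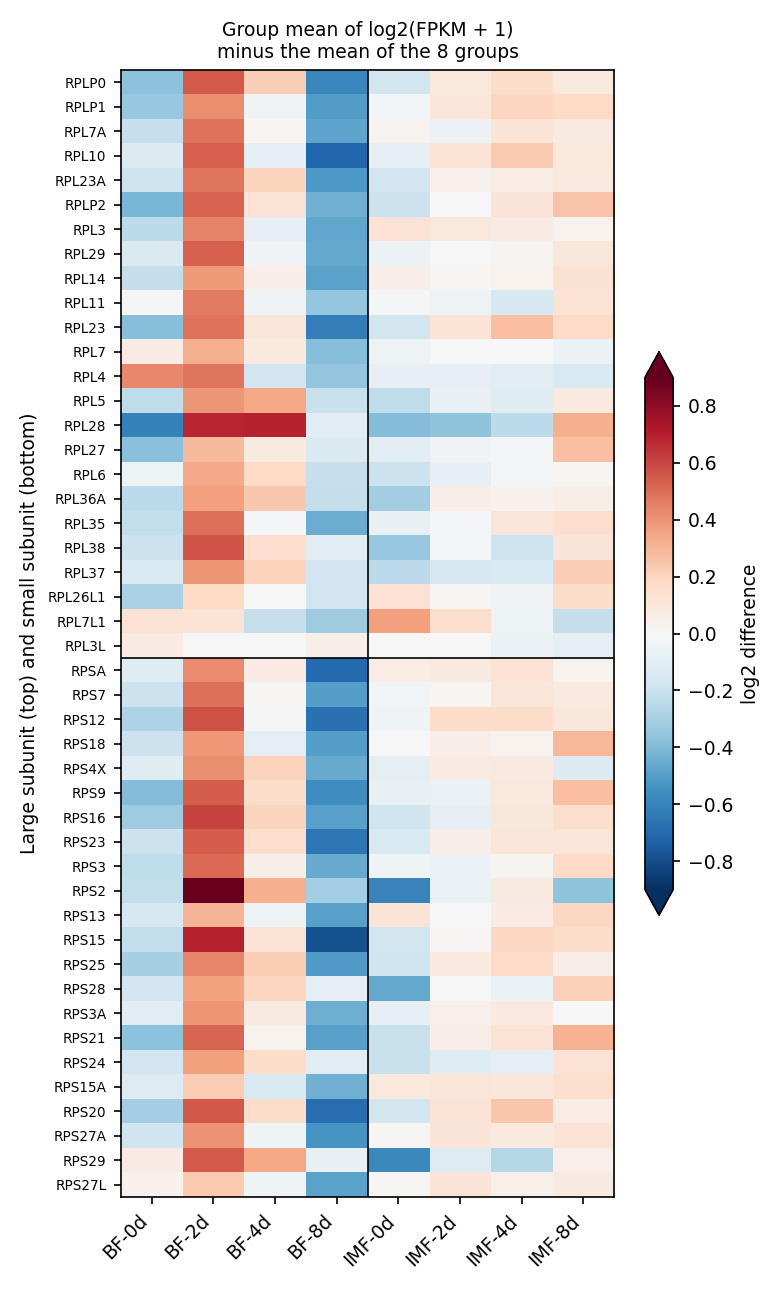
Group means of log2(FPKM + 1) for 46 of the 49 tested members (rows, by subunit and falling mean level) minus each gene's mean over the 8 groups (columns). Red is above and blue below that mean. BF-2d is the highest group for 43 of the 46 and BF-8d the lowest for 34, while the IMF columns are pale.

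In IMF cells no member passed the test in any of the 3 intervals. Between day 0 and day 2, 0 members were called in limma, against 3.28% of all genes. An unadjusted p under 0.05 was found for 0 members, against 21.2% of all genes. The median was 0.10. Between day 2 and day 4, 0 members were called (0.0992% of all genes were), and the median was 0.03. Again 0 members had an unadjusted p under 0.05, against 8.34% of all genes. Between day 4 and day 8, 0 members were called (22.2% of all genes were), and the median was 0.04. Here 1 member had an unadjusted p under 0.05, against 44.5% of all genes. Over this interval 1 member was called without BF-2d replicate 2 or replicate 3. RPLP0 is an example, and its libraries measured 2213, 2186 and 2764 FPKM in IMF-0d, 2757, 3032 and 2764 FPKM in IMF-2d, 3145, 2981 and 2832 FPKM in IMF-4d, and 2934, 2506 and 3085 FPKM in IMF-8d. The IMF-0d libraries reached into the range of IMF-2d and IMF-8d but lay below IMF-4d. Over days 0 to 8, RPL28 was called higher (10.4% of all genes were) and RPL7L1 lower (15.3% of all genes were), and the median was 0.22.

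The depots were compared on each day, with differences as IMF minus BF. On day 0, 0 members were called, against 7.60% of all genes, and the median was 0.15. An unadjusted p under 0.05 was found for 4 members, against 25.6% of all genes. On day 2, 2 members were called lower in IMF (4.84% of all genes were), and the median was -0.43. RPL28, described further on, was 1 of them. Libraries did not overlap for 31 members, all lower in IMF, against 13.4% of all genes. On day 2 the calls numbered 1 without BF-2d replicate 2, IMF-2d replicate 1 or IMF-2d replicate 3, 7 without BF-2d replicate 3, and 9 without BF-4d replicate 3. On day 4, RPL28 alone was called, lower in IMF (10.4% of all genes were), and the median was -0.03. Between 2 and 4 members were called on day 4 without BF-2d replicate 2 or 3, BF-4d replicate 3 or BF-8d replicate 2.

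On day 8 the called members were higher in IMF, the opposite direction to day 2. The depot labels of day 8 were checked with the genes called in 1 direction between the depots on days 0, 2 and 4. Of 273 such genes higher in IMF, 257 were also higher on day 8, and of 60 lower in IMF, 49 were also lower. In IMF, 19 members were called higher and 0 lower, against 16.1% of all genes called higher, with a median of 0.57, a fold of 1.48, and 0 of the 19 passed the fold limit, which 6.96% of all genes did. Libraries did not overlap for 40 members that were higher in IMF, against 30.8% of all genes. Of the small subunit members 14 of 25 were called, and of the large subunit members 5 of 24. RPS15 measured 497, 336 and 500 FPKM in IMF-8d against 225, 230 and 225 FPKM in BF-8d, a difference of 0.95 ± 0.21 (adjusted p = 0.00163). RPS9 measured 1018, 726 and 1039 FPKM against 507, 527 and 507 FPKM, a difference of 0.83 ± 0.19 (adjusted p = 0.00176). In both genes IMF-8d replicate 2 was the lowest of its group and remained above BF-8d. RPL10 differed by 0.81 ± 0.16 (adjusted p = 0.000585), RPSA by 0.73 ± 0.16 (adjusted p = 0.00146), RPLP0 by 0.67 ± 0.16 (adjusted p = 0.00223), RPLP1 by 0.68 ± 0.18 (adjusted p = 0.00545), RPS20 by 0.75 ± 0.19 (adjusted p = 0.00416), RPS3 by 0.63 ± 0.18 (adjusted p = 0.00797) and RPS27A by 0.65 ± 0.16 (adjusted p = 0.00261). The RPS3 call was kept in 13 of the 24 fits without 1 library and in 3 of 10 other alternatives. The count of calls was 3 without IMF-8d replicate 1, 4 without IMF-8d replicate 3, 11 without BF-8d replicate 1, 8 without BF-8d replicate 2 or 3, and 29 without BF-4d replicate 3. With median ratio scaling 1 member was called, and with values rescaled to TPM 11.

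**Figure D3:**
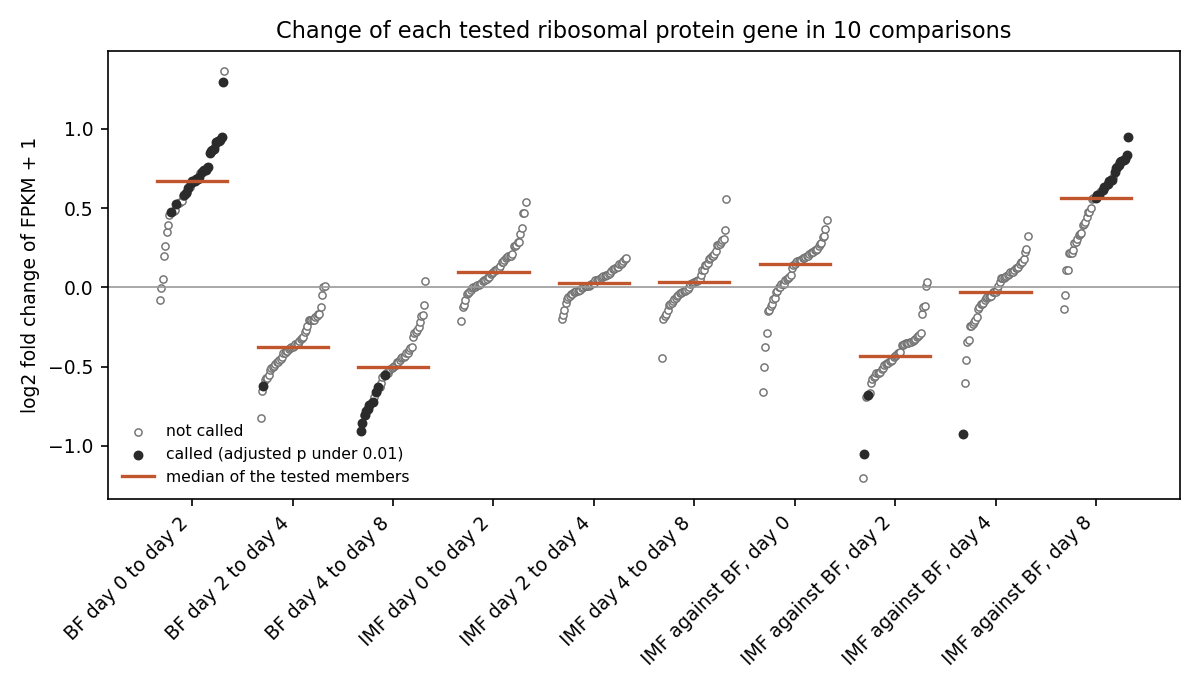
Log2 fold change of FPKM + 1 of the 49 tested members (points, sorted within a column) in 10 comparisons. Filled points were called, open points were not, and orange bars mark the median. The medians are 0.67, -0.38 and -0.50 over the BF intervals, between 0.03 and 0.10 over the IMF intervals, and 0.15, -0.43, -0.03 and 0.57 for IMF minus BF on days 0, 2, 4 and 8.

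Whether the depots changed by different amounts was tested with interaction contrasts, the IMF change minus the BF change. Over days 0 to 2 only RPL28 was called (2.12% of all genes were called lower), and 25 of 49 members had an unadjusted p under 0.05, against 30.2% of all genes. The median difference was -0.55, and RPLP0 did not pass (-0.66 ± 0.22, adjusted p = 0.0528). Over days 2 to 4, 0 were called, against 4.49% of all genes. An unadjusted p under 0.05 was found for 13 members, against 28.6% of all genes. Over days 4 to 8 again only RPL28 was called (5.70% of all genes were called higher), and 26 of 49 had an unadjusted p under 0.05, against 30.5% of all genes, with a median of 0.55. A different course in the 2 depots was therefore called for RPL28 and for no other member. Over days 4 to 8 the calls numbered 15 without BF-4d replicate 3, 4 without BF-2d replicate 2, and 2 without BF-2d replicate 3, BF-8d replicate 1 or IMF-8d replicate 2. Over days 0 to 2 they numbered 3 without BF-2d replicate 3 or BF-4d replicate 3, and 0 without any 1 of 9 other libraries, among them BF-2d replicate 1 and replicate 2.

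Most members moved together across the libraries. The profile of a member over the 24 libraries correlated with the median of the other members at a median Pearson's r of 0.85, and 33 of 49 exceeded 0.8. These values describe libraries that share a scaling and a group structure. The lowest belonged to RPL3L (-0.30), RPL7L1 (0.16) and RPL4 (0.44).

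RPL28, a large subunit protein, had the largest called rise. It measured 228, 260 and 305 FPKM in BF-0d, 657, 951 and 432 FPKM in BF-2d, 662, 701 and 588 FPKM in BF-4d and 398, 374 and 358 FPKM in BF-8d. In IMF cells it measured 282, 283 and 360 FPKM on day 0, 305, 328 and 303 FPKM on day 2, 338, 354 and 331 FPKM on day 4 and 560, 411 and 549 FPKM on day 8. RPL28 thus stayed high in BF-4d, with each library above every BF-0d library, and IMF-8d lay above IMF-0d, IMF-2d and IMF-4d without overlap. It rose by 1.30 ± 0.20 over BF days 0 to 2 (adjusted p = 5.27e-05), kept the same mean to day 4 (0.00 ± 0.20), and fell by 0.78 (SE 0.20, adjusted p = 0.00856) to day 8. That fall was called in 8 of the 24 fits without 1 library. Over IMF days 0 to 8 it rose by 0.71 ± 0.20 (adjusted p = 0.0072), a call lost without IMF-0d replicate 1 or 2 or without IMF-8d replicate 1 or 3. IMF was below BF by -1.05 ± 0.20 on day 2 (adjusted p = 0.000716) and by -0.93 ± 0.20 on day 4 (adjusted p = 0.000747). Its interaction values were -1.27 ± 0.28 over days 0 to 2 (adjusted p = 0.00636) and 1.34 ± 0.28 over days 4 to 8 (adjusted p = 0.00199). When each library was centred on the ribosomal protein median, RPL28 still rose over BF days 0 to 2 (0.54 ± 0.18, adjusted p = 0.0076), that is, relative to the median member. Of its other calls, centring kept IMF against BF on day 4 (-0.77, adjusted p = 0.00133). It lost BF days 4 to 8 (-0.26), IMF days 0 to 8 (0.57), IMF against BF on day 2 (-0.34, adjusted p = 0.0793) and both interactions (-0.48 and 0.81). The interaction over days 0 to 2 was also lost with no filter, median ratio scaling, a replicate block or only the groups compared, and was kept in 15 of the 24 fits without 1 library.

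RPL4, a large subunit protein with a long internal extension, had nearly the same level on days 0 and 2 in BF cells. It measured 665, 643 and 724 FPKM in BF-0d, 681, 740 and 688 FPKM in BF-2d, 540, 577 and 283 FPKM in BF-4d and 417, 370 and 391 FPKM in BF-8d. The first 2 groups overlapped (0.05 ± 0.21, adjusted p = 0.887), and every BF-8d library lay below every BF-0d library. Between day 0 and day 8 RPL4 fell by 0.78 (SE 0.21, adjusted p = 0.00413), the largest fall among the called members in that comparison. The call was lost without BF-0d replicate 1 or 3 or without BF-8d replicate 2 or 3. In IMF cells its libraries lay between 367 and 561 FPKM with no order by day. Centred on the ribosomal protein median, RPL4 was called lower over BF days 0 to 2 (-0.70 ± 0.19, adjusted p = 0.0018). RPL7, a large subunit protein, was also called lower on that scale (-0.50 ± 0.17, adjusted p = 0.0078). Its value without centring was 0.26 ± 0.14 and did not pass (adjusted p = 0.179).

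RPL7L1, a relative of RPL7 that is known from ribosome assembly in the nucleolus, ended lower on day 8 than on day 0 in both depots. It measured 26.9, 28.5 and 30.6 FPKM in BF-0d and 22.5, 32.5 and 31.7 FPKM in BF-2d, which overlapped (-0.01 ± 0.12, adjusted p = 0.991). It then measured 22.6, 20.9 and 24.1 FPKM in BF-4d and 19.4, 21.3 and 21.5 FPKM in BF-8d, and the last group lay below BF-0d throughout. In IMF cells it measured 33.8, 32.4 and 35.9 FPKM on day 0, 29.1, 30.5 and 28.2 FPKM on day 2, 26.5, 24.8 and 24.6 FPKM on day 4, and 23.4, 20.2 and 23.7 FPKM on day 8. No IMF group overlapped the one before it. From day 0 to day 8 RPL7L1 fell by 0.45 in BF (SE 0.12, adjusted p = 0.00315) and by 0.58 in IMF (SE 0.12, adjusted p = 0.000493), the second being called in all 24 fits without 1 library. Both calls were lost with median ratio scaling and with centring on the ribosomal protein median. Over all alternatives the IMF value stayed between -0.72 and -0.44, with a highest adjusted p of 0.0173 in limma. The BF value stayed between -0.51 and -0.25, with a highest adjusted p of 0.339. The BF call was lost without BF-0d replicate 2 or 3 or without BF-8d replicate 1.

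The other named relatives were low and mixed. RPS27L, a relative of RPS27 known as a p53 target, measured 12.4, 14.7 and 17.5 FPKM in BF-0d and 11.6, 8.64 and 9.87 FPKM in BF-8d, a fall of 0.52 (SE 0.14, adjusted p = 0.0049). It was higher in IMF-8d, where all libraries lay between 14.5 and 16.3 FPKM, by 0.57 ± 0.14 (adjusted p = 0.004). These 2 calls were kept in 20 and 21 of the 24 fits without 1 library and in 5 and 4 of 10 other alternatives. RPL26L1, a relative of RPL26, rose by 0.47 ± 0.13 over BF days 0 to 2 (adjusted p = 0.00769), a call kept in 15 of the 24 fits without 1 library and in 4 of 10 other alternatives. RPL3L lay under 0.2 FPKM in every library and has no level to compare.

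The remaining calls fell within the range of these members. Over BF days 0 to 2 the other 11 called members, among them RPL14, RPL23, RPL23A, RPL27, RPL29, RPS7, RPS12, RPS16 and RPS25, had log2 fold changes between 0.60 (RPL14) and 0.93 (RPS16). Over BF days 4 to 8 the other 2 were RPL23A (-0.72) and RPS25 (-0.74). For IMF minus BF on day 8 the other 9, among them RPL14, RPL23, RPS7, RPS12, RPS13, RPS15A, RPS18 and RPS23, had differences between 0.58 and 0.80. Of the 49 tested members, 14 were called in 0 of the 15 contrasts, namely RPL3L, RPL6, RPL7, RPL11, RPL35, RPL36A, RPL37, RPL38, RPS2, RPS3A, RPS21, RPS24, RPS28 and RPS29. RPL38 is one of these, with 62.6, 85.7 and 102 FPKM in BF-0d and 118, 186 and 122 FPKM in BF-2d. Its libraries did not overlap and its value of 0.76 ± 0.26 did not pass in limma (adjusted p = 0.0326).

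RPS2 had the largest standard errors of the 49 members. It measured 174, 473 and 558 FPKM in BF-0d, 767, 1319 and 777 FPKM in BF-2d, and 846, 882 and 189 FPKM in BF-4d. Its value of 1.36 ± 0.58 over BF days 0 to 2 was the largest of any member, the libraries did not overlap, and it did not pass (adjusted p = 0.0787). RPS2 is 1 of 8 members whose annotated gene overlaps another annotated gene, in this case RNF151 and NDUFB10. RPL7A, RPL29 and RPS4X are also among the 8, and a link between overlap and spread was not tested.

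**Figure D4:**
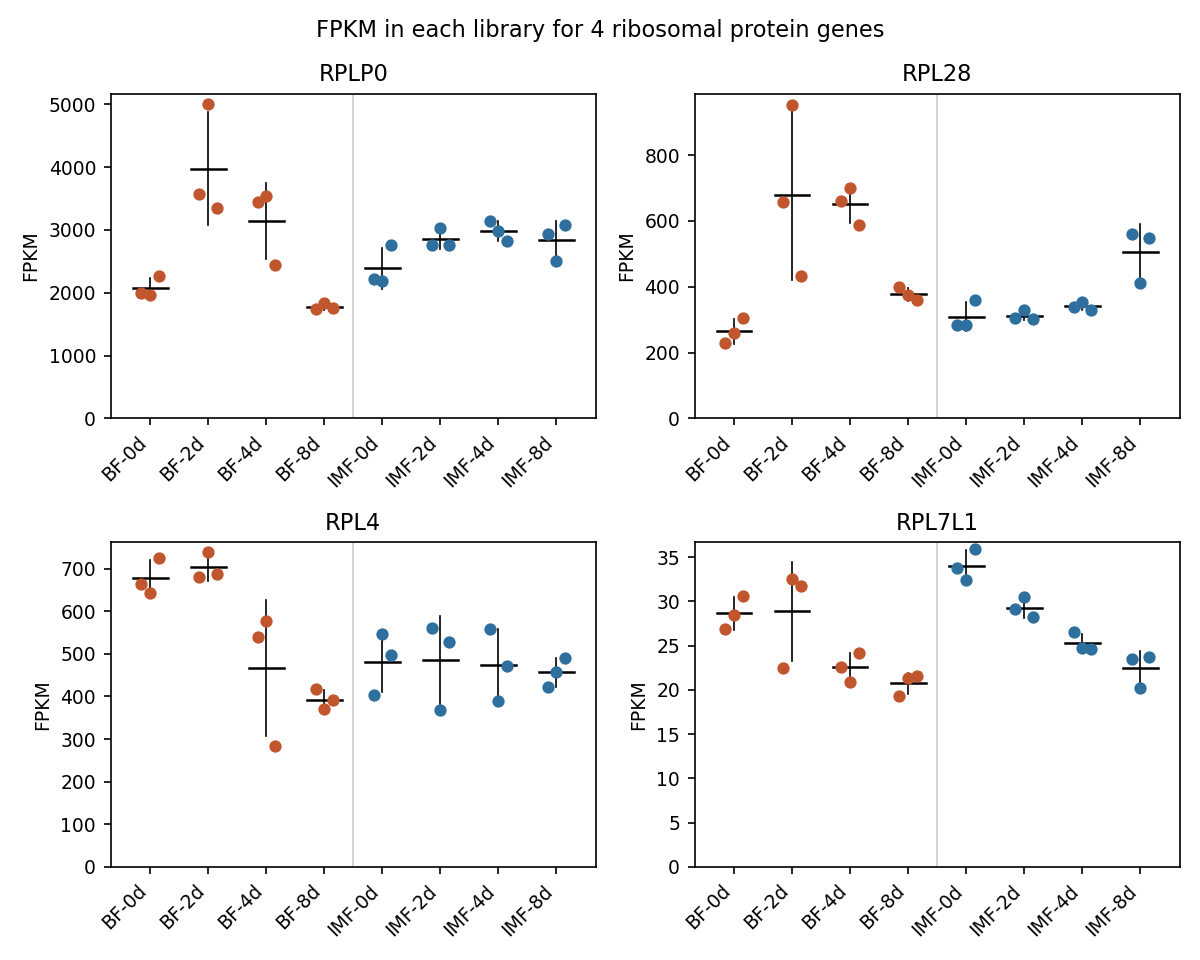
FPKM of RPLP0, RPL28, RPL4 and RPL7L1 in the 24 libraries (points), with group means and ± 1 SD (n = 3). RPLP0 peaks in BF-2d and lies between 2186 and 3145 FPKM in IMF, RPL28 is high in BF-2d, BF-4d and IMF-8d, RPL4 is level from BF-0d to BF-2d and then lower, and RPL7L1 declines in both depots.

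Members with a long C/T run at the annotated start had medians close to those of the others. Over BF days 0 to 2 the 11 members with a run of at least 8 bases had a median of 0.66 and the other 38 a median of 0.67. Over BF days 4 to 8 the medians were -0.63 and -0.49, and for IMF minus BF on day 8 they were 0.58 and 0.56. Calls over BF days 4 to 8 numbered 5 of 11 with such a run and 5 of 38 without, over BF days 0 to 2 7 and 19, and on day 8 5 and 14. These differences were not tested. RPL28, with the largest called rise, has no run, whereas RPL7 has a run of 13 bases, as long as that of RPL10.

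Other genes of the translation apparatus were counted in the same fit. Ribosomal proteins outside the symbol rule numbered 3 (FAU, RACK1 and RPL36AL), and RACK1, which sits on the small subunit, rose over BF days 0 to 2 (0.60, adjusted p = 0.0028 in limma). Of 12 elongation factors and other TOP mRNAs, 7 were called higher and 0 lower over that interval, against 7.88% of all genes called higher, with a median of 0.51. They included the elongation factor subunit EEF1D (1.03), the splicing factor HNRNPA1 (0.69) and TPT1 (0.60). Over BF days 4 to 8, 5 of the 12 were called lower and 0 higher (median -0.48), against 4.87% of all genes called lower. In IMF cells 0, 0 and 1 of them were called over the 3 intervals, against 3.28, 0.0992 and 22.2% of all genes. Of 19 initiation factors, 6 were called higher and 1 lower over BF days 0 to 2, against the same 7.88%, with a median of 0.02.

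Factors that build ribosomes in the nucleolus were counted as a list of their own. Over BF days 0 to 2, 9 of 40 biogenesis factors were called higher and 0 lower (7.88% of all genes were called higher), led by NOB1 (1.69), which cuts the small subunit RNA to its final form, by the RNA polymerase subunit POLR1D (1.11) and by RRP1B (1.02), but the median was 0.08. Over IMF days 4 to 8, where 0 ribosomal protein genes were called, 16 of the 40 were called lower and 0 higher, against 13.0% of all genes called lower, with a median of -0.44. NAT10, which acetylates ribosomal RNA, fell by 1.11, RRP12 fell by 0.82 and GAR1, of the pseudouridylation complex, fell by 0.79. Over IMF days 0 to 8, 25 were called lower and 1 higher, against 15.3% of all genes called lower.

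Of 16 genes of growth signalling toward ribosome mRNAs, 2 were called higher and 1 lower over BF days 0 to 2 (7.88% of all genes were called higher). DDIT4, an inhibitor of mTOR signalling, rose by 3.29 and MYC, an activator of ribosome genes, by 1.21, while SESN2, another mTOR inhibitor, fell by 1.17. Of 64 mitochondrial ribosomal protein genes, 10 were called higher and 1 lower over that interval (median 0.21). Over BF days 2 to 4, 14 were called lower (median -0.36), against 5.82% of all genes. In IMF against BF on day 4, 18 were called higher and 1 lower (median 0.28), against 19.4% of all genes called higher, and on day 8, 21 were called higher and 0 lower (median 0.32), against 16.1% of all genes called higher.

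**Figure D5:**
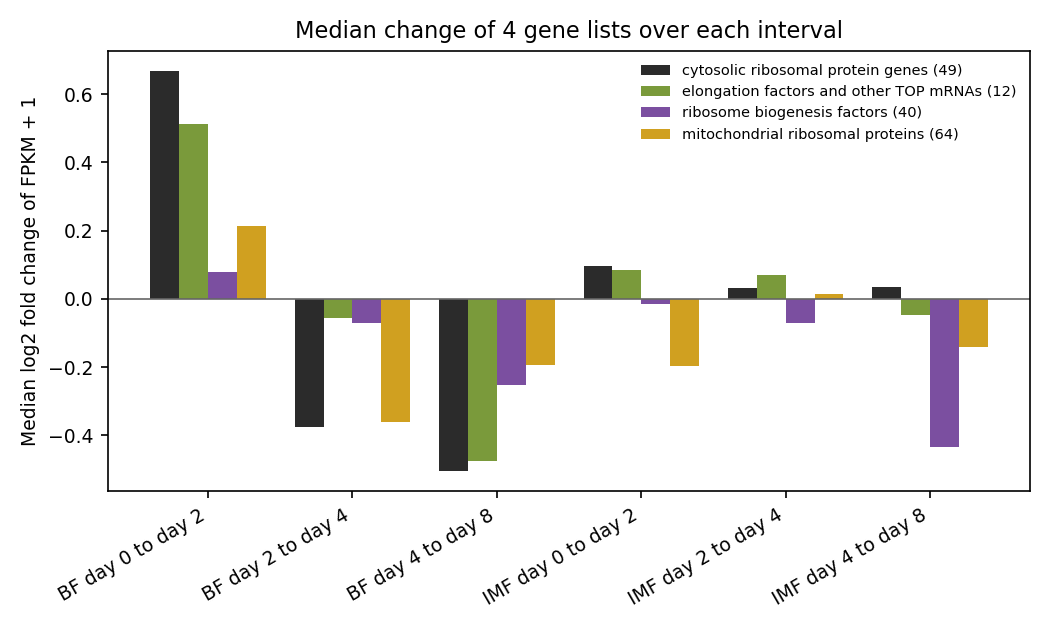
Median log2 fold change of FPKM + 1 (bars) over each interval for 49 ribosomal protein genes, 12 elongation factors and other TOP mRNAs, 40 biogenesis factors and 64 mitochondrial ribosomal protein genes. The first 2 lists are high over BF days 0 to 2 (0.67 and 0.51), and the biogenesis factors are lowest over IMF days 4 to 8 (-0.44).

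The levels of cell type markers also differed between the groups. Of 16 adipocyte markers written, 14 were in the table and 9 passed the filter, and ADIPOQ, PLIN1, LEP and DGAT2 stayed at or near 0 throughout. The summed adipocyte markers lay between 107 and 109 FPKM in BF-0d, 186 and 265 in BF-2d, 288 and 424 in BF-4d, and 352 and 710 in BF-8d, and in IMF between 121 and 161 up to day 4 and between 188 and 226 in IMF-8d. Lipoprotein lipase (LPL) had means of 2.22 FPKM in BF-0d and 422 FPKM in BF-8d. Of the 9 tested adipocyte markers, LPL was called higher over BF days 0 to 8, and the median was 0.04. The adipogenic regulator PPARG (-1.04) and fatty acid synthase FASN (-0.57) were the 2 called lower. Of all genes, 22.8% were called lower and 36.9% in either direction. The 9 stromal markers in the table summed to 13616 to 14885 FPKM in BF-0d, 6566 to 12845 in BF-2d, 3957 to 6090 in BF-4d and 5408 to 5966 in BF-8d, and in IMF 14194 to 14443 on day 0 and 7363 to 8438 on day 8. Of these 9, 5 were called lower over BF days 0 to 8, against 22.8% of all genes, among them the collagen gene COL1A1 (-2.77). Another 2 were called higher, among them the growth factor receptor PDGFRA (1.51), while 36.9% of all genes were called in either direction. Over IMF days 0 to 8, 3 were called lower and 2 higher, against 15.3 and 10.4% of all genes, with a median of -0.10. Of 12 myogenic markers only DES passed the filter. It lay highest in IMF-0d (mean 37.0 FPKM), and MYOD1, MYF5 and MYF6 were listed at 0 in all 24 libraries. Of 7 endothelial markers found, 3 passed, with sums of 19.6 to 22.0 FPKM in BF-0d, 5.19 to 11.2 in BF-2d and 6.64 to 9.49 in BF-8d, against 22.1 to 27.2 in IMF-0d and 11.7 to 12.9 in IMF-8d. Of 8 immune markers 4 passed, CD3E was at 0 in all libraries and PTPRC in 22 of 24. The immune sum, 79.6 to 135 FPKM in BF-2d against 53.3 to 77.5 in BF-0d, consisted mainly of CD79A. The part of these cell type markers in the changes of ribosomal protein genes was not tested.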

How the data were processed

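Polyadenylated RNA of 24 pig preadipocyte libraries (8 groups of 3) was sequenced as paired reads. The authors aligned reads to Sscrofa11.1 with HISAT2 and assembled and quantified transcripts with StringTie (1.3.4d per the submitters' processing notes). The deposited FPKM values are scaled by transcript length and mapped fragments, so depth is unknown. The authors' DESeq2 (1.6.3) test needs counts and was not used.

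The test covered the 16135 genes with an FPKM sum over all libraries above 1. One mean per group was fitted to log2(FPKM + 1) across the libraries by limma (version 3.58.1, R version 4.3.3, eBayes with trend and robust, two-sided, Benjamini-Hochberg over all tested genes), giving 15 contrasts. The steps were tested on simulated data. Members and gene lists were chosen with earlier results of these data known. Named are relatives of another ribosomal protein, members with a well known role, the 3 highest and 3 lowest members, and the 2 largest called rises and falls of each comparison, with up to 3 called genes per list. Values of 3 members are not reported here one by one, although all 3 are in the counts and medians. RPS2 and RPL38 were named after their values were seen. Alternatives covered the pseudocount, 2 filters, 4 scalings, the samples fitted, a replicate block, the fold limit and each library left out. Start sites and overlaps came from RefSeq annotation of Sscrofa11.1.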

Additional observations from a re-analysis of the deposited data

Results flagged for a closer look

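The change differed between the depots for 1 member over days 0 to 2 and for 1 member over days 4 to 8, by the interaction contrast of limma. Both were RPL28. The first call was kept in 15 of the 24 fits without 1 library and lost with no filter, median ratio scaling, centring, a replicate block or only the groups compared, and the second was lost with centring. Over days 0 to 2 the IMF change minus the BF change of RPL28 was -1.27 on the log2 scale, since RPL28 rose in each BF-2d library above all BF-0d libraries while the IMF groups overlapped. Over days 4 to 8 the same difference was 1.34, since RPL28 fell in BF and was higher in each IMF-8d library than in any IMF-4d library.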

How the results depend on the processing

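Counts below are members called at an adjusted p under 0.01 unless stated. Of 1530 values of named members under the alternatives, 1150 kept their direction and side of the threshold, 372 lost the call and 8 changed sign. Where a call was lost, the cause was not tested, except where fewer samples or a stricter rule define the alternative. Leaving out each library in turn gave 4 to 34 calls over BF days 0 to 2, 0 to 1 over BF days 2 to 4, 0 to 32 over BF days 4 to 8, 0 to 7 over BF days 0 to 8, 0 to 1 over IMF days 4 to 8, 1 to 2 over IMF days 0 to 8, 1 to 9 between depots on day 2, 1 to 4 on day 4, 3 to 29 on day 8, 0 to 3 for the interaction over days 0 to 2 and 1 to 15 over days 4 to 8, and 0 throughout for the 4 other comparisons.

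With the fold limit as well, 1 member was called over BF days 0 to 2 and 1 between depots on day 2. The interactions over days 0 to 2 and 4 to 8 kept 1 each. The count was 0 over BF days 2 to 4, 4 to 8 and 0 to 8, over IMF days 0 to 8, and between depots on days 4 and 8. With only the groups compared, 0 were called over BF days 0 to 2, 2 to 4 and 4 to 8, between depots on day 2 and for the interaction over days 0 to 2, and 1 over IMF days 4 to 8. With median ratio scaling, 0 were called over BF days 2 to 4, 4 to 8 and 0 to 8 and for the interaction over days 0 to 2, 1 over IMF days 0 to 8, 2 between depots on day 4 and 1 on day 8. With values rescaled to TPM, 13 were called over BF days 0 to 2, 0 over BF days 2 to 4, 2 between depots on day 4 and 11 on day 8. This scaling moved the median of all genes over BF days 0 to 2 from -0.04 to -0.19. With quantile normalization, 6 were called over BF days 0 to 2, 18 over BF days 0 to 8, 1 over IMF days 0 to 8 and 1 between depots on day 2. With no filter, 0 were called over BF days 2 to 4 and for the interaction over days 0 to 2, and 1 over IMF days 0 to 8. With a group mean of at least 1 FPKM, 2 were called between depots on day 4 and 2 for the interaction over days 4 to 8.

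Centring each library on the ribosomal protein median leaves only unequal change. Over BF days 0 to 2, 6 members were then called, 1 higher (RPL28) and 5 lower (RPL7, RPL4, RPL7L1, RPS27L and RPL3L, the last with values near 0 that centring shifts). Over BF days 0 to 8, 1 was called, higher, and between depots on day 2, 4 were called, higher in IMF. 0 were called over BF days 2 to 4 and 4 to 8, over IMF days 0 to 8, between depots on day 8 and for the interactions over days 0 to 2 and 4 to 8. Over BF days 0 to 2 the centred values changed sign for RPL7A (-0.0634), RPL10 (-0.10), RPL3 (-0.0720), RPS4X (-0.23), RPS3 (-0.0155), RPL5 (-0.13), RPS27A (-0.18) and RPL26L1 (-0.29).

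No steady pairing of the libraries by replicate number was seen, in a check that is weak with 3 libraries per group. Deviations of same-numbered libraries correlated at -0.454 to 0.457 (median 0.00136) over 84 pairs, 9 of them above 0.1, and 10 of 24 libraries correlated best with their own number. With the replicate number as a block, 22 members were called over BF days 0 to 2, 0 over BF days 2 to 4, 6 over BF days 4 to 8, 1 over IMF days 0 to 8, 16 between depots on day 8, and 0 for the interaction over days 0 to 2.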

Other observations

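The genes beside RPL28 were looked at after its values had been seen. On chromosome 6 of Sscrofa11.1 the nearest annotated gene on one side is TMEM238, 572 bases away, and on the other side UBE2S, 5663 bases away. Over the 24 libraries, log2(FPKM + 1) of UBE2S, a ubiquitin-conjugating enzyme, correlated with RPL28 at a Pearson's r of 0.85 and that of TMEM238 at 0.69, ranks 90 and 639 among 16134 other tested genes. IL11, a cytokine gene 11676 bases away, had an r of 0.79 and rank 275. TMEM238 did not exceed 1.83 FPKM in any library. These values describe libraries that share groups and scaling, and many genes elsewhere in the genome had a higher r.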
